A study of Mus musculus with 12 samples.

Results

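The genes described are 9 members of the chemokine system and the macrophage growth factor Csf1: the ligands Ccl2, Ccl7, Cxcl1, Cxcl5, Cxcl12, Cxcl14, Cxcl16 and Cx3cl1, the receptor Ackr3, and Csf1. They were taken by symbol, with earlier results of these data known, and all 10 were found among the 48321 genes of the expression table, of which 22569 had at least 1 read. The RNA came from immortalized murine brown adipocytes. Preadipocytes from interscapular brown fat (of wild-type C57BL/6J mice in the series text, of 1 newborn wild-type mouse in the methods) were immortalized with SV40 large T, transduced by lentivirus with the Plex empty vector or with truncated (soluble) semaphorin 4B, a mimetic of the part that the protease ADAM17 sheds, and then differentiated to day 8. The first line is called vector and the second tSema4B. Each line was left unstimulated or given norepinephrine (NE, 2 μM for 6 h), the adrenergic agonist that switches on thermogenesis in brown fat. This gave 4 groups of 3 libraries: vector and tSema4B cells, each unstimulated or with NE. All groups share the SV40 large T immortalization and the differentiation cocktail, each construct is represented by 1 transduced line, and the series calls the replicates technical, so the p-values below measure only the spread between these libraries.

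Chemokines are small secreted proteins that guide leukocytes along gradients by binding G protein-coupled receptors. They are named for the spacing of their first cysteines (CC, CXC and CX3C), and some are made by stromal cells, adipocytes and their precursors as well as by immune cells. Ccl2 and Ccl7 draw in monocytes through Ccr2. Cxcl1 and Cxcl5 draw in neutrophils through Cxcr2. Cxcl12 retains blood and progenitor cells in tissues through Cxcr4, and Ackr3 binds and clears Cxcl12 without classical G protein signalling. Cxcl16 and Cx3cl1 are made as membrane proteins and released by the proteases ADAM10 and ADAM17. Csf1 keeps macrophages alive through its receptor Csf1r, and Cxcl14 is a chemokine that brown adipocytes are known to release.

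The libraries held 2000780 to 5409583 reads on genes, and the vector NE libraries were the deepest (4739777 to 5409583). Values are normalized read counts, that is, reads divided by the size factor of their library, and 1 read was worth 0.593 to 1.55 normalized counts. Sema4b, the gene carried by the construct, was higher in tSema4B than in vector libraries when unstimulated (281510 ± 31108 against 116800 ± 6692, SD, n = 3) and with NE (234280 ± 32374 against 74266 ± 8219). The empty-vector libraries thus also held 65472 to 124008 normalized counts of Sema4b, and whether these reads stem from the endogenous gene was not tested. The 10 adipocyte markers of a fixed list (Adipoq, Fabp4, Ucp1 and others) were all detected, and all 10 were called lower in tSema4B in both conditions (adjusted p no higher than 0.05 and a change of 1 log2 unit or more, limma), against 2.71% of all tested genes unstimulated and 3.73% with NE. Only genes with 10 or more normalized counts in at least 3 libraries were tested. Cidea, 1 of these markers, met this only through its vector libraries, so its place in both counts already reflects a difference. The summed level of the 10 adipocyte markers ran from 40676 to 46572 in vector and from 6869.7 to 9660.1 in tSema4B libraries when unstimulated, and from 54282 to 65749 against 10855 to 12262 with NE. The summed level of 10 fibroblast and preadipocyte markers, most of it from Col1a1 and Col3a1, ran the other way, from 16019 to 16792 against 30049.7 to 34299 when unstimulated and from 13096 to 15269.8 against 28207 to 29991 with NE. Of these 10 markers 3 (Fap, Col1a1 and Col3a1) were called higher in each condition, against 1.11% and 2.03% of all tested genes. The median log2 differences of the 10 were 0.54 and 0.95. Over the alternatives the unstimulated difference fell to 0.94 for Col1a1 (0.97 leaving out 1 library) and 0.98 for Col3a1, under the fold of a call. That of Fap stayed at 1.20 or more, and with NE all 3 stayed at 1.01 or more. Fewer cells of a type and less RNA per cell cannot be told apart in such bulk samples. Among 11 macrophage markers, 6 had no read in any library, the defining genes Adgre1 and Ptprc among them, and none of 6 lymphocyte and neutrophil markers exceeded 4 reads in a library.

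Divided by exon length, the monocyte attractant Ccl2 had the highest level of the 10 genes in all 4 groups, from 222.5 ± 20.0 normalized reads per kb of exon in vector NE to 327 ± 64.0 in unstimulated tSema4B libraries (SD, n = 3). Its libraries did not overlap those of the next gene, Ccl7, in any group. Ccl7 followed with means of 129 to 163 per kb, and Csf1 with 93.2 to 138 per kb. In unstimulated vector libraries the order went on with Cxcl12 (57.4 ± 2.09 per kb), Cxcl1 (55.8 ± 10.6 per kb) and Cx3cl1 (52.7 ± 2.88 per kb), and the libraries of neighbours in this trio overlapped. Cxcl16 was at 22.2 ± 5.18 per kb, Cxcl5 at 8.44 ± 1.81 per kb and Cxcl14 at 6.62 ± 0.712 per kb, and the last pair overlapped. Ackr3, the only receptor among the 10, was lowest at 0.759 ± 1.31 per kb. The order below Ccl7 differed in the other groups. In unstimulated tSema4B libraries Cxcl1 and Cx3cl1 stood above Cxcl12, and Cxcl14 above Cxcl5, and these neighbours overlapped. In vector NE libraries Cxcl1 stood between Ccl7 and Csf1 with 114 ± 20.7 per kb, overlapping both, and Cxcl16 was last with 9.63 ± 2.56 per kb, overlapping Ackr3. In tSema4B NE libraries Cxcl5 was last with 7.70 ± 5.06 per kb, overlapping Ackr3. Taking the longest annotated transcript in place of all exons put Csf1 above Ccl7 in both tSema4B groups and above Cxcl1 in vector NE, where the libraries of these genes overlapped. It also put Cxcl12 above Cxcl1 in both tSema4B groups and left no overlap between Cxcl12 and the next gene, Cx3cl1, in unstimulated vector libraries.

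**Figure D1:**
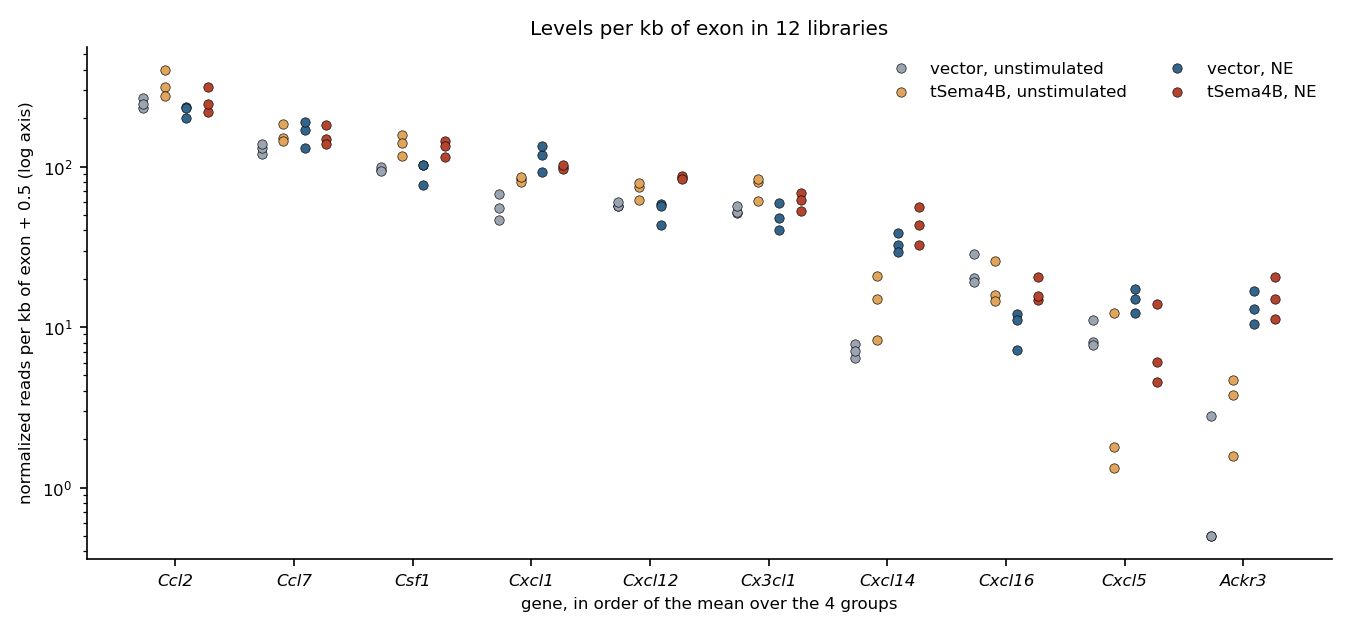
Each point is the level of 1 gene in 1 of 12 libraries, as normalized reads per kb of exon plus 0.5 on a log axis, coloured by group, with genes in order of their mean over the 4 groups. Ccl2 is at the top, with group means of 222.5 to 327 per kb, and Cxcl14, Ackr3 and Cxcl1 are the genes whose NE points lie above the unstimulated points of the same line in both lines.

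Tests used limma on log2(normalized count + 1) over 11998 genes with Benjamini-Hochberg adjustment, and all log2 fold changes are on that scale. A call required both an adjusted p no higher than 0.05 and a change of 1 log2 unit or more. In vector cells Ackr3, Cxcl14 and Cxcl1 rose and Cxcl16 fell, which is 3 of 10 called higher and 1 of 10 called lower, where 1.66% of all tested genes were called higher and 0.975% lower. In tSema4B cells Ackr3 and Cxcl14 rose, which is 2 of 10 called higher and none lower, against 1.31% and 0.758% of all tested genes. Ackr3 passed the filter on low values only through its NE libraries, so its place in both counts already reflects a difference. The median log2 fold change of the 10 genes with NE was 0.13 in vector and 0.11 in tSema4B cells, beside -0.02 and -0.01 over all tested genes. edgeR and DESeq2 gave these NE counts too. At an unadjusted p under 0.05 by limma 3 of the 10 were higher and 1 lower with NE in tSema4B cells. Of all 11998 tested genes, 2387 passed that threshold in this comparison, both directions together. Both NE comparisons have control libraries of their own, but each shares libraries with the comparisons of the lines.

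Between the lines fewer of the 10 genes were called than with NE, although their median log2 fold changes were larger. In unstimulated cells 1 of 10 genes (Ackr3) was called higher in tSema4B and none lower, where 1.11% of all tested genes were called higher and 2.71% lower. With NE none of the 10 was called in either direction, where 2.03% were called higher and 3.73% lower. By the adjusted p alone, 4 of 10 genes were higher in tSema4B when unstimulated (Ackr3, Csf1, Cxcl1 and Cx3cl1) and 2 of 10 with NE (Csf1 and Cxcl12), and 0 were lower. By the same threshold, of all 11998 tested genes 677 were higher and 887 lower when unstimulated, and 1175 were higher and 1342 lower with NE. The median log2 fold change of the 10 was 0.43 unstimulated and 0.26 with NE, beside -0.003 and -0.01 over all tested genes. With NE the share of higher among all calls depended on scaling. It was 35.3% as deposited, 48.9% when every library was set to the same total over all genes, and 28.2% with the same total over nuclear genes. At an unadjusted p under 0.05 by limma, 7 of the 10 were higher and 1 lower in tSema4B when unstimulated and 3 higher and 0 lower with NE. Of all 11998 tested genes, both directions together, 3137 passed that threshold when unstimulated and 3945 with NE. edgeR and DESeq2 called 0 of the 10 between the lines in either condition. The difference of the NE effect between the lines, tested as an interaction, was called for none of the 10 genes by limma or edgeR. It was also called for none of the 6 to which DESeq2 gave an adjusted p. Over all tested genes it was called for 0.025% in the higher and 0% in the lower direction. By limma 4 of the 10 had an unadjusted p under 0.05, as had 1227 of all 11998 tested genes.

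**Figure D2:**
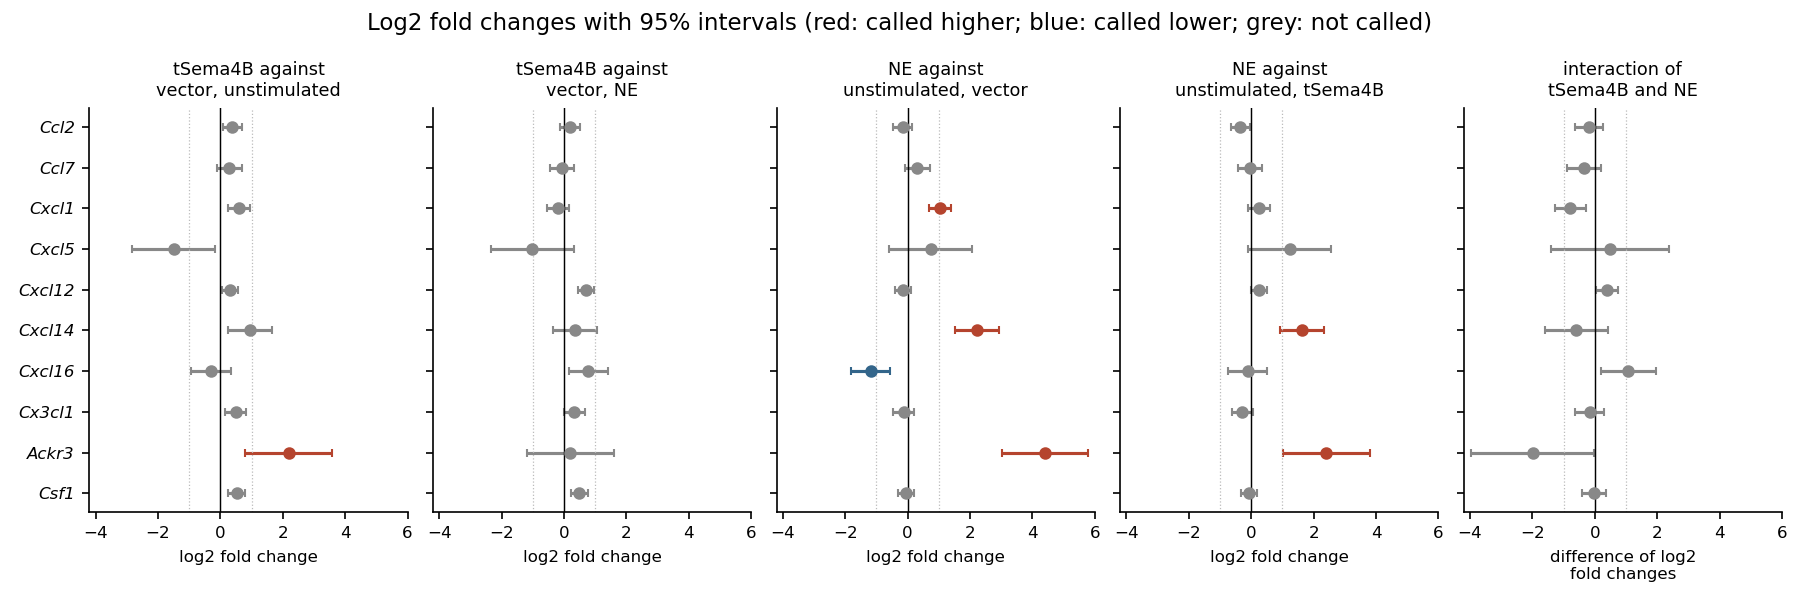
Each point is the log2 fold change of 1 gene in 1 comparison, with its 95% interval as a bar, for the 2 comparisons of the lines, the 2 of NE and their interaction; dotted lines mark a log2 change of 1 in size. Red points were called higher and blue lower: Ackr3 in 3 panels, Cxcl14 in both NE panels, and Cxcl1 and Cxcl16 in the NE panel of the vector line.

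The CC chemokines Ccl2 and Ccl7 lie next to each other on chromosome 11 (GRCm38, chr11:82035571-82037453 and chr11:82045712-82047525, both on the plus strand), with 8258 bases between them. Ccl2 had 306, 262 and 279 normalized counts in the 3 unstimulated vector libraries and 453, 354 and 311 in the tSema4B libraries. With NE the values were 268, 227 and 265 in vector and 354, 248 and 277 in tSema4B. All 3 unstimulated tSema4B libraries thus lay above all vector libraries, while the NE groups overlapped. The log2 difference between lines was 0.38 ± 0.15 (SE) when unstimulated (adjusted p = 0.101, limma) and 0.20 ± 0.15 with NE (adjusted p = 0.388). NE gave log2 changes of -0.16 in vector and -0.34 in tSema4B cells, neither called (adjusted p = 0.587 and 0.199).

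Ccl7 shares the receptor of Ccl2. It had 95.6, 104 and 111 normalized counts in unstimulated vector and 120, 114 and 146 in unstimulated tSema4B libraries. With NE it had 135, 104 and 152 in vector and 146, 119 and 110 in tSema4B libraries. The unstimulated lines did not overlap, yet the log2 difference was only 0.29 (95% interval -0.10 to 0.68, adjusted p = 0.360, limma). No comparison of Ccl7 reached the threshold, and with NE the lines differed by -0.05 (95% interval -0.44 to 0.33).

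The neutrophil attractants Cxcl1 and Cxcl5 lie on chromosome 5 (chr5:90891241-90893115 and chr5:90759360-90761624, plus strand), 129616 bases apart. Cxcl1 had 85.8, 103 and 125 normalized counts in unstimulated vector and 219, 174 and 251 in vector NE libraries. In tSema4B it had 156, 150 and 160 unstimulated and 184, 180 and 192 with NE. In both lines the NE libraries lay above all unstimulated ones, and unstimulated tSema4B lay above unstimulated vector. Cxcl1 rose 2.05-fold with NE in vector cells (log2 1.03 ± 0.17 SE, adjusted p = 0.000306, limma). In tSema4B cells the ratio was 1.19 (log2 0.25 ± 0.17, adjusted p = 0.445). The unstimulated line difference was 0.58 ± 0.17 (adjusted p = 0.0240), below the fold that counts as a call. This adjusted p rose to 0.138 without replicate 1 and 0.0674 without replicate 2 of the unstimulated vector libraries, and to 0.0580 and 0.0601 without replicate 1 or 3 of the unstimulated tSema4B libraries. The difference between the NE effects was -0.78 (95% interval -1.28 to -0.28), with a raw p of 0.00373 and an adjusted p of 0.242 over all genes by limma. The vector call sits at the fold threshold: its log2 change was 0.90 without replicate 1 of the unstimulated vector libraries and 0.91 without replicate 3 of the vector NE libraries, with adjusted p of 0.00384 and 0.00562. It was 0.97 with a pseudocount of 10 and 0.99 with every library set to the same total.

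Cxcl5, the other ligand of this receptor, was low and uneven. It had 14.1, 13.4 and 19.6 normalized counts in unstimulated vector and 26.9, 21.9 and 31.4 in vector NE libraries. In tSema4B it had 2.38, 1.55 and 21.9 unstimulated and 7.51, 10.4 and 25.1 with NE. In each tSema4B group replicate 3 was the highest and fell within or above the range of vector, while the other 2 libraries lay below it. These tSema4B values rest on 1 to 19 reads per library. The line difference was -1.50 ± 0.65 (SE) unstimulated (adjusted p = 0.136, limma) and -1.01 ± 0.65 with NE (adjusted p = 0.294). NE gave 1.23 ± 0.65 in tSema4B cells (adjusted p = 0.301). This NE change was 0.70 with edgeR and 0.71 with DESeq2, and as low as 0.63 leaving out 1 library and 0.49 over all alternatives. The unstimulated difference was -0.63 with a pseudocount of 10, -0.86 with edgeR or DESeq2 and -0.91 without replicate 2 of the unstimulated tSema4B libraries. Without replicate 3 of the unstimulated tSema4B libraries the unstimulated difference was -2.49 (adjusted p = 0.00467) and the NE change in tSema4B 2.22 (adjusted p = 0.0226), so this 1 library decides both calls. The NE change in vector cells was 0.73 (adjusted p = 0.547), although its groups did not overlap.

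Cxcl12 lies at chr6:117168535-117181367 on the plus strand. It had 458, 461 and 489 normalized counts in unstimulated vector and 610, 645 and 502 in unstimulated tSema4B libraries. With NE it had 474, 351 and 460 in vector and 691, 711 and 682 in tSema4B libraries. In both conditions the lowest tSema4B library was above the highest vector library. With NE Cxcl12 was 1.62-fold higher in tSema4B (694.5 ± 15.0 against 429 ± 67.3, SD, n = 3; log2 0.71 ± 0.12 SE, adjusted p = 0.000173, limma), which is under the fold of a call, with an adjusted p of 3.76e-07 to 0.00210 over its alternatives. Unstimulated, the difference was 0.31 ± 0.12 (adjusted p = 0.0900). NE itself gave -0.14 in vector and 0.25 in tSema4B cells (adjusted p = 0.518 and 0.237), and the interaction of 0.40 had an adjusted p of 0.403. The summed fibroblast and preadipocyte markers were higher in the same tSema4B libraries, and their part in this difference was not tested.

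Cxcl14 (chr13:56288643-56296551, minus strand) rose with NE in both lines. It had 10.9, 13.4 and 12.0 normalized counts in unstimulated vector and 69.9, 58.7 and 53.0 in vector NE libraries. In tSema4B it had 14.3, 26.3 and 37.0 unstimulated and 101, 77.6 and 58.1 with NE. No NE library overlapped an unstimulated one. The ratio was 5.00 in vector (log2 2.23 ± 0.34 SE, adjusted p = 0.000155, limma) and 3.05 in tSema4B cells (log2 1.63 ± 0.34, adjusted p = 0.00454), and both calls held under all 16 alternative settings. The difference of the NE effects was -0.59 (95% interval -1.60 to 0.42, adjusted p = 0.732). Unstimulated, all tSema4B libraries lay above all vector libraries, with a difference of 0.94 ± 0.34 (adjusted p = 0.0749). Without replicate 1 of the unstimulated tSema4B libraries this became 1.30 (adjusted p = 0.0150), past the threshold.

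Among the ligands made as membrane proteins, Cxcl16 (chr11:70453983-70459984, minus strand) fell with NE in vector cells. It had 59.7, 56.3 and 85.0 normalized counts in unstimulated vector and 34.9, 32.0 and 20.3 in vector NE libraries. In tSema4B it had 76.3, 46.4 and 42.4 unstimulated and 42.9, 45.5 and 60.8 with NE. The vector groups did not overlap, while the tSema4B groups did. The vector mean went from 67.0 ± 15.6 to 29.1 ± 7.75 (SD, n = 3; log2 -1.19 ± 0.30 SE, adjusted p = 0.0122, limma), and in tSema4B cells the log2 change was -0.11 (adjusted p = 0.885). The call in vector cells is lost without replicate 3 of the unstimulated vector libraries (adjusted p = 0.0753) or without replicate 3 of the vector NE libraries (adjusted p = 0.0848). The difference of the NE effects was 1.08 (95% interval 0.19 to 1.96, adjusted p = 0.381). With NE all tSema4B libraries lay above all vector libraries, at 0.77 ± 0.30 (adjusted p = 0.0737). Of the 3021 exon bases of Cxcl16, 552 also belong to Zmynd15 on the other strand, so reads there could belong to either gene.

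Cx3cl1 (chr8:94772009-94782427, plus strand), whose receptor sits on monocytes and other leukocytes, was higher in tSema4B when unstimulated. It had 199, 203 and 220 normalized counts in unstimulated vector and 313, 326 and 238 in unstimulated tSema4B libraries. With NE it had 232, 156 and 187 in vector and 268, 206 and 242 in tSema4B libraries. The unstimulated lines did not overlap and the NE lines did. The unstimulated ratio was 1.41 (log2 0.48 ± 0.16 SE), with an adjusted p of 0.05 by limma, at the threshold and under the fold of a call. Leaving out any 1 of 5 of the 6 unstimulated libraries took it over 0.05, to 0.0708 to 0.170. With NE the difference was 0.32 ± 0.16 (adjusted p = 0.167), and NE gave -0.13 in vector and -0.29 in tSema4B cells (adjusted p = 0.709 and 0.336).

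Ackr3 (chr1:90203980-90216751, plus strand), the scavenging receptor of Cxcl12, went from almost no reads to clear detection with NE. In unstimulated vector libraries it had 0, 0 and 7.62 normalized counts, from 0, 0 and 7 reads. With NE the vector libraries held 54.4, 33.2 and 41.9, from 81, 56 and 64 reads. In tSema4B it had 3.58, 13.9 and 10.9 unstimulated, from 3, 9 and 8 reads, and 48.3, 67.2 and 35.7 with NE, from 45, 71 and 27 reads. Every NE library was above every unstimulated library. The mean went from 2.54 ± 4.40 to 43.2 ± 10.7 in vector (SD, n = 3; log2 4.40 ± 0.67 SE, adjusted p = 0.000132, limma) and from 9.48 ± 5.33 to 50.4 ± 15.9 in tSema4B cells (log2 2.41 ± 0.67, adjusted p = 0.0318). The vector call held under all 15 alternatives that tested the gene, with log2 changes of 2.12 to 5.44, whose size depends on the pseudocount because 2 unstimulated libraries were at 0. Only 2 unstimulated libraries, both of tSema4B, reached the 10 normalized counts that the filter on low values asked of 3 libraries, so the gene was tested only because of its NE libraries.

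In tSema4B cells the log2 change of Ackr3 with NE ran from 1.64 to 2.75 over 15 alternatives, and its call was lost in 6 of them. Among them its adjusted p was 0.137 without replicate 1 of the unstimulated tSema4B libraries, 0.0512 without replicate 3, and 0.0695 or 0.114 without replicate 1 or 2 of the tSema4B NE libraries. The unstimulated difference between lines (log2 2.19 ± 0.67, adjusted p = 0.0321) is weaker, since the groups overlapped and hold 0 to 9 reads per library. It was lost in 9 of 15 alternatives, with edgeR (adjusted p = 0.140) and DESeq2 (adjusted p = 0.0625), and without replicate 1 or 2 of the unstimulated vector libraries (adjusted p = 0.152 and 0.158) or replicate 2 or 3 of the unstimulated tSema4B libraries (0.126 and 0.0930). Its size ran from 0.65 with a pseudocount of 10 (adjusted p = 0.168) to 3.22 without replicate 3 of the unstimulated vector libraries. With NE the lines differed by 0.20 (95% interval -1.19 to 1.59, adjusted p = 0.871). The difference of the NE effects was -1.99 (95% interval -3.95 to -0.03, adjusted p = 0.480), and over the alternatives it ran from -3.02 to -0.48.

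Csf1 (chr3:107741048-107760469, minus strand) was higher in tSema4B in both conditions by the adjusted p, and its response to NE did not pass the test. It had 502, 523 and 490 normalized counts in unstimulated vector and 834, 738 and 612 in unstimulated tSema4B libraries. With NE it had 538, 401 and 538 in vector and 755, 605 and 712 in tSema4B libraries. The lowest of the tSema4B libraries, at 605, was above the highest of the vector libraries, at 538. Csf1 was 1.44-fold higher unstimulated (log2 0.52 ± 0.13 SE, adjusted p = 0.00841, limma) and 1.40-fold higher with NE (log2 0.49 ± 0.13, adjusted p = 0.00780), both under the fold of a call. The adjusted p was 0.0610 without replicate 1 of the unstimulated tSema4B libraries and 0.0700 without replicate 2 of the vector NE libraries. NE gave -0.05 in vector (95% interval -0.32 to 0.22) and -0.07 in tSema4B cells (95% interval -0.34 to 0.20). The interaction was -0.02 (95% interval -0.40 to 0.35, adjusted p = 0.984). As for Cxcl12, the fibroblast and preadipocyte markers were higher in the same libraries, and their part was not tested.

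**Figure D3:**
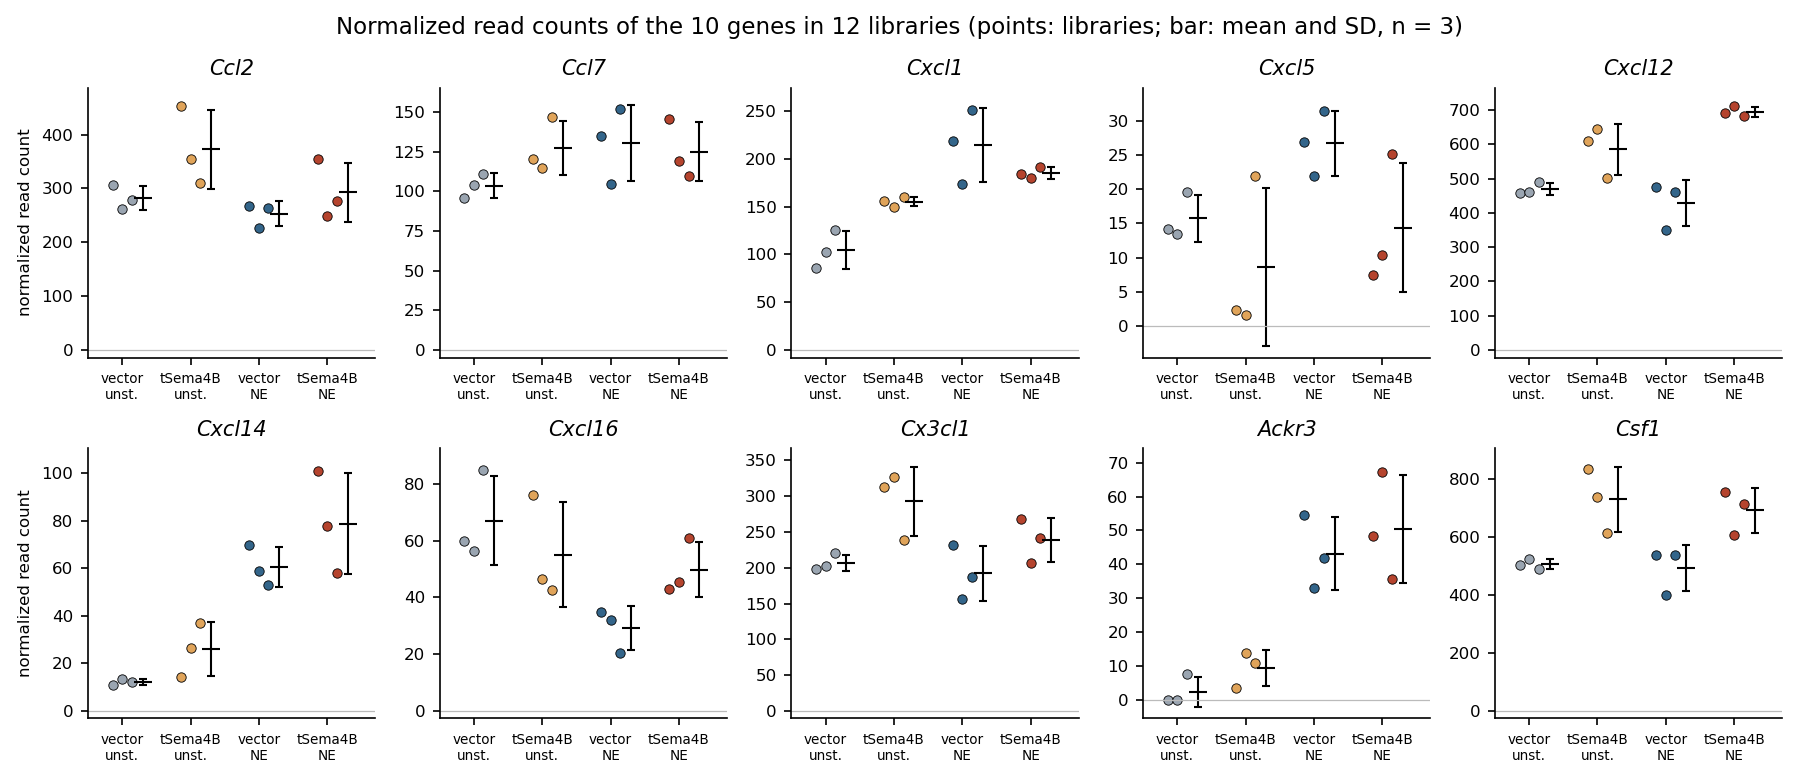
Each panel shows the normalized read counts of 1 gene in the 12 libraries (points, coloured by group) with the mean and SD of each group (n = 3). Ackr3, Cxcl14 and Cxcl1 separate by NE in both lines, Csf1 and Cxcl12 separate by line in both conditions, and Cxcl5 shows replicate 3 of tSema4B above the other 2 in each condition.

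The 3 genes that rose with NE in vector cells were compared by the sequence before their start. NE raises cAMP in brown adipocytes, and cAMP response elements and kB motifs are the classical binding sites of CREB and NF-kB. The RefSeq table (GRCm38.p6) lists promoters for 6 of the 10 genes, and Ccl2, Ccl7, Cxcl5 and Cxcl16 are not among them. The 250 bases before the RefSeq start are shown for Cxcl1 (chr5:90890995-90891244, plus strand), Cxcl14 (chr13:56296552-56296801, minus strand) and Ackr3 (chr1:90203730-90203979, plus strand), 5′ to 3′ on the strand of the gene, with motif matches in capitals.
Cxcl1: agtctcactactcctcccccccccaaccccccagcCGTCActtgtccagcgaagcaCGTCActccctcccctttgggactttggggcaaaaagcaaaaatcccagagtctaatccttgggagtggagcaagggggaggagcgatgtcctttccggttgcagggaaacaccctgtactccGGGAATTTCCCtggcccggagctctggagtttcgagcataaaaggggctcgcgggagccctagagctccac
Cxcl14: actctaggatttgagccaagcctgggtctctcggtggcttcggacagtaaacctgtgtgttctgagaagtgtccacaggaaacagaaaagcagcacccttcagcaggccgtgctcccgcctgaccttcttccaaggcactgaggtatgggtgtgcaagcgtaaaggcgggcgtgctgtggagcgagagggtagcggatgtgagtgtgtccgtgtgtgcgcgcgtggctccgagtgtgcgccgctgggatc
Ackr3: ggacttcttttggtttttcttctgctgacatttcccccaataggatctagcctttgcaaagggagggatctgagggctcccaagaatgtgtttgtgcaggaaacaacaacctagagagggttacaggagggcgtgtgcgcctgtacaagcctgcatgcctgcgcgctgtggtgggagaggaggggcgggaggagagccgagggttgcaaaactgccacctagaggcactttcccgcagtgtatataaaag

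Both strands were searched for the full cAMP response element TGACGTCA, its core TGACG, the AP-1 site TGANTCA and the kB motif, where the core is part of the full element. Cxcl1 held 2 core matches, both on the other strand (215 to 211 and 194 to 190 bases before the start), and 2 overlapping kB matches, 1 on each strand, 71 to 61 bases before the start. Neither Cxcl14 nor Ackr3 held a match in this window. Of the other promoters listed, Cxcl12 held 1 core match, Csf1 1 kB match and Cx3cl1 none. Over 32851 promoter windows of the same length, 17.8% held the core, 1.55% the full element, 6.75% the AP-1 site and 7.25% the kB motif. A match is a description of these letters and not evidence of binding.

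The other chemokine ligands were mostly below the filter. Of 30 ligands in a fixed list, 22 had a read in some library and 5 passed the filter (Ccl5, Ccl9, Ccl25, Cxcl9 and Cxcl10). Ccl9, a CC chemokine of myeloid cells, rose with NE in both lines. It had 10.9, 43.7 and 28.3 normalized counts in unstimulated vector and 163, 139 and 142 in vector NE libraries, and 17.9, 9.28 and 5.48 against 246, 272 and 206 in tSema4B. The log2 change was 2.57 ± 0.39 (SE) in vector (adjusted p = 0.000117, limma) and 4.48 ± 0.39 in tSema4B cells (adjusted p = 1.05e-07). The difference of the NE effects was 1.90 and did not pass the test (adjusted p = 0.211, limma). Unstimulated, Ccl9 was lower in tSema4B by -1.21 (adjusted p = 0.0416, limma). That last call is lost without replicate 2 or 3 of the unstimulated vector libraries (adjusted p = 0.253 and 0.123) or of the unstimulated tSema4B libraries (0.0913 and 0.183). Ccl25, a thymic and gut chemokine, was lower in tSema4B with NE by -1.08 ± 0.33 (26.1 ± 3.43 against 56.1 ± 4.46, SD, n = 3; adjusted p = 0.0225), a call lost without any 1 of the vector NE libraries (adjusted p = 0.0524 to 0.0819) or without replicate 1 of the tSema4B NE libraries (0.0630).

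The receptors that would read these ligands were near the limit of detection. Of 22 chemokine receptors other than Ackr3, 11 had no read in any library, Ccr2 and Cxcr2 among them, and none passed the filter. Cxcr4, the signalling receptor of Cxcl12, had 0 to 6 reads per library, and Ccrl2, with the most reads of the 22, had 24 in 1 tSema4B NE library and at most 10 in the others. Of 7 colony-stimulating factors and receptors besides Csf1, only Il34 and Csf1r passed. Csf1r, the receptor of Csf1, had 0 to 2 reads in each unstimulated library and 9 to 22 with NE, with log2 changes of 2.43 ± 0.71 in vector (adjusted p = 0.0289, limma) and 3.00 ± 0.71 in tSema4B cells (adjusted p = 0.0119). Over the alternatives these ran from 0.92 to 3.11 in vector and from 1.17 to 3.55 in tSema4B cells, lowest with a pseudocount of 10. The vector call is lost with that pseudocount, with no filter (adjusted p = 0.0566) and without replicate 2 or 3 of the unstimulated or any 1 of the NE vector libraries (adjusted p = 0.0721 to 0.137), and the tSema4B call without replicate 2 or 3 of the tSema4B NE libraries (0.0526 and 0.0542). It passed the filter only through its NE libraries, so that it was tested already reflects a difference. Of its 5774 exon bases, 873 also belong to Hmgxb3 on the other strand, so reads there could belong to either gene. The summed level of the 11 macrophage markers, Csf1r included, ran from 13.1 to 21.7 in unstimulated vector and from 41.7 to 59.6 in vector NE libraries, and from 17.8 to 29.4 and from 25.7 to 52.1 in tSema4B, while Adgre1, Ptprc, C1qa, C1qb, Fcgr1 and Mrc1 had no read. Of the 11, only Csf1r and Cd14 passed the filter, and Cd14, an endotoxin co-receptor, had a log2 change with NE of 1.29 in vector cells (adjusted p = 0.0464, limma), a call lost without any 1 of the 6 vector libraries (0.0633 to 0.176).

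Of the proteases that cut chemokines, 4 of 6 were tested and none was called in any comparison, where 0.758% to 3.73% of all tested genes were called in a given direction of the lines or of NE. Adam17 itself was at 621 ± 82.2 normalized counts in unstimulated vector and 622.5 ± 78.9 in unstimulated tSema4B libraries (SD, n = 3). Mmp2 and Mmp14, which trim several chemokines, were higher in tSema4B by the adjusted p alone, by 0.83 ± 0.13 and 0.87 ± 0.13 (SE) when unstimulated (1.01 for Mmp14 without replicate 3 of the unstimulated vector libraries, which is past the fold) and by 0.74 ± 0.13 and 0.72 ± 0.13 with NE. Adam10 was lower with NE in tSema4B cells by the adjusted p alone (-0.46 ± 0.13, adjusted p = 0.0372, limma), which was 0.124 and 0.0995 without replicate 1 or 2 of the unstimulated and 0.180 without replicate 3 of the NE libraries of tSema4B.

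Of 22 NF-kB subunits, inhibitors and targets, 19 were tested. With NE 4 were called higher and none lower in vector, where 1.66% and 0.975% of all tested genes were, and 3 higher and none lower in tSema4B cells, against 1.31% and 0.758%. The cytokine Il6 had 0, 0 and 5.45 normalized counts in unstimulated vector and 39.6, 19.0 and 29.5 in vector NE libraries (log2 3.97 ± 0.77 SE, adjusted p = 0.00162, limma). In tSema4B cells its log2 change was 2.99 ± 0.77 (adjusted p = 0.0210), and it too passed the filter only through NE libraries. With 3 unstimulated libraries at 0, these changes ran from 1.73 to 4.86 in vector and from 1.33 to 3.59 in tSema4B cells over the alternatives. The tSema4B call of Il6 is lost without replicate 2 of the unstimulated (adjusted p = 0.0952) or replicate 2 or 3 of the NE libraries (0.0598 and 0.0589). The nuclear cofactor Nfkbiz rose by 1.07 and 1.31 (adjusted p = 0.00315 and 0.000673) and the mitochondrial enzyme Sod2 by 1.02 and 1.08 (adjusted p = 2.44e-06 and 1.45e-06). The fold of Nfkbiz in vector was 0.98 without replicate 2 of the unstimulated and 0.97 without replicate 1 of the NE libraries, and that of Sod2 in tSema4B 0.96 without replicate 2 of the unstimulated libraries. In vector cells Sod2 was at 0.93 without replicate 3 of the unstimulated, 0.99 without replicate 3 of the NE libraries and 0.98 with equal totals. Bcl3 was called in vector cells (1.88 ± 0.43, adjusted p = 0.00585). In tSema4B cells its change was 1.01 ± 0.43 (adjusted p = 0.185, limma). The difference of the NE effects of Bcl3 did not pass the test (-0.88, adjusted p = 0.670, limma). Between the lines the inhibitor Nfkbie was called higher in tSema4B with NE (1.12 ± 0.30, adjusted p = 0.00966), 1 of 19 against 2.03% of all tested genes, a call lost without replicate 2 of the vector NE libraries (0.86, adjusted p = 0.0704) or replicate 3 of the tSema4B NE libraries (0.97). By the adjusted p alone, 1 of the 19 was higher and 1 lower in tSema4B when unstimulated, and 4 were higher and 1 lower with NE. Of all 11998 tested genes 677 were higher and 887 lower when unstimulated, and 1175 and 1342 with NE. The lower gene was Sod2 in both conditions (-0.66 and -0.59, adjusted p = 0.000289 and 0.000613, limma). The list medians between the lines were 0.22 unstimulated and -0.08 with NE. They were 0.26 and 0.21 with NE in vector and tSema4B cells, beside -0.02 and -0.01 over all tested genes.

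**Figure D4:**
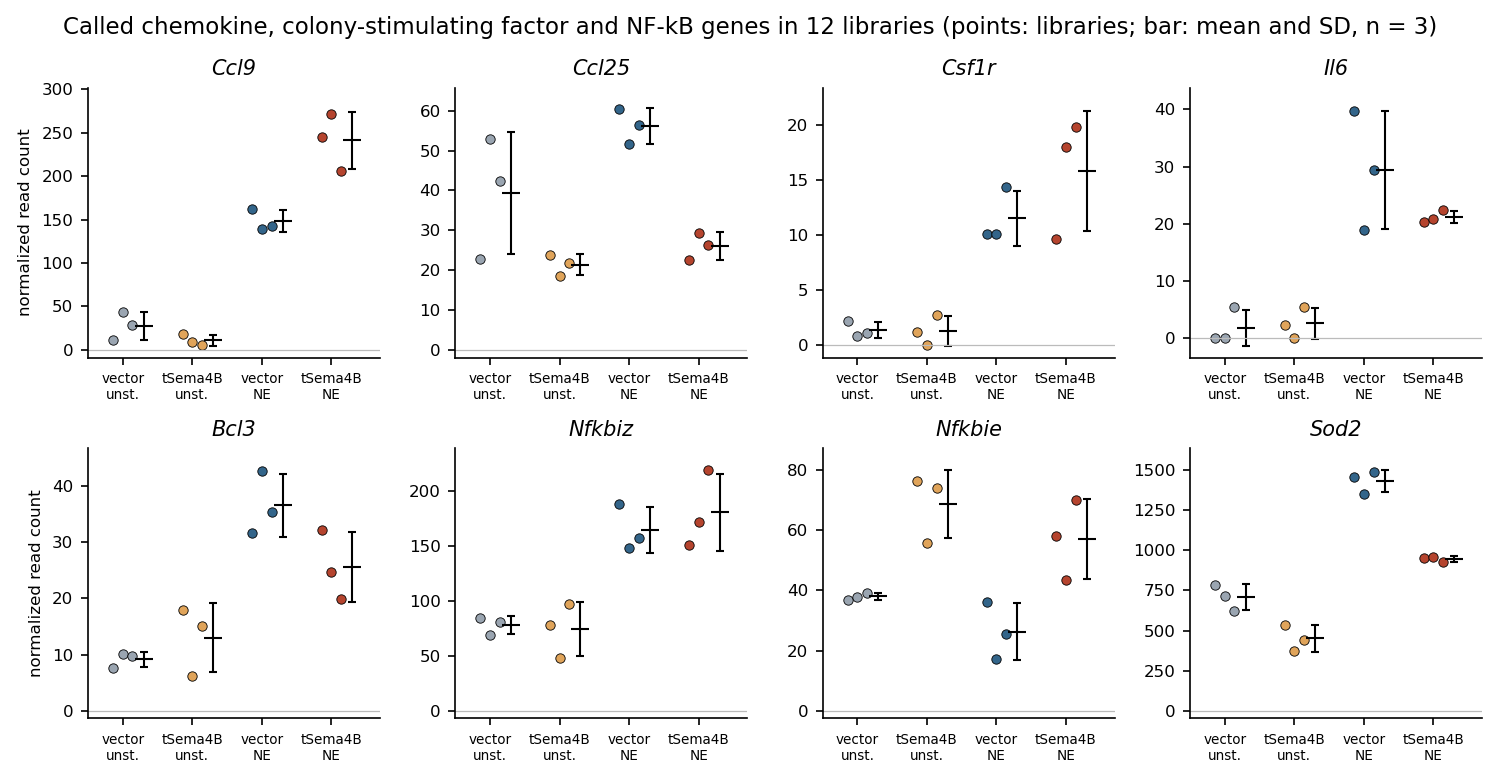
Each panel shows the normalized read counts of 1 gene in the 12 libraries (points, coloured by group), with the mean and SD of each group (n = 3), for the 8 genes of the ligand, colony-stimulating factor and NF-kB lists that were called in some comparison. Ccl9, Csf1r, Il6, Bcl3, Nfkbiz and Sod2 lie higher in every NE library than in any unstimulated library of the same line, and Nfkbie is higher in tSema4B.

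Of 14 cAMP response genes, 11 were tested. With NE 5 were called higher in vector and 2 in tSema4B cells, against 1.66% and 1.31% of all tested genes, and none lower, against 0.975% and 0.758%. Both counts include Ucp1, which passed the filter only through its NE libraries. Ucp1, the uncoupling protein of brown fat, rose by 4.42 ± 0.36 (SE) on the log2 scale in vector cells (adjusted p = 3.79e-08, limma). In tSema4B cells it had no read in any unstimulated library and 66.5, 61.5 and 60.8 normalized counts with NE (adjusted p = 8.46e-10), at least 15.3-fold higher when each unstimulated library is set to 3 reads; the fitted log2 change ran from 2.87 to 9.06 over the alternatives. Pde4d and Nr4a1, a cAMP phosphodiesterase and an immediate early receptor, rose by 1.81 and 1.71 in vector cells, where tSema4B cells gave 0.90 and -0.17 (adjusted p = 0.0869 and 0.850); the difference of the NE effects did not pass the test for either gene (-0.91 and -1.88, adjusted p = 0.482 and 0.181). Crem, the cAMP-responsive modulator, rose by 1.69 in vector and 1.40 in tSema4B cells. Unstimulated, Ucp1 was at least 2.96-fold lower in tSema4B, on the same floor of 3 reads (adjusted p = 1.48e-07). Per1 was lower (-1.28) and Sik1 higher (1.33) in unstimulated tSema4B, where the Per1 call is lost without any 1 of 3 libraries (adjusted p = 0.0545 to 0.0838) and the Sik1 call without any 1 of 4 (0.0515 to 0.0881), and with NE Ucp1 and Nr4a1 were lower (-2.12 and -1.60).

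For 9 of the 10 genes, Ccl7 left out, the tested genes most like it in pattern were found by Pearson's r of the log2 values over the 12 libraries. Since these fall in 4 groups, genes that follow the same group means score high, and r is given as a description only. Cxcl14 was closest to Phlda1 (r = 0.981), Lmo4 (0.963) and Osmr (0.961), and Cxcl12 to Pdgfra (0.969), Ptges (0.943) and Sec31a (0.930). Ackr3 was closest to Qsox1 (0.945), Tiparp (0.945) and Stambpl1 (0.938). Tiparp (0.932) and Stambpl1 (0.911) were also among the 3 closest to Cxcl1, beside Uck2 (0.920). Ccl2 was closest to Akap10 (0.934), Csf1 to Ncoa7 (0.930), Cx3cl1 to Thbs2 (0.916), Cxcl16 to Vps9d1 (0.907) and Cxcl5 to Dolpp1 (0.897).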

How the data were processed

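RNAseq data from 12 libraries in 4 groups of 3 were used, each assigned from its label. Per the labels and methods, the authors made cDNA by the SMART-Seq2 protocol, removed reads of other species with FastQ Screen, used STAR 2.7.9a for alignment to GRCm38.p4, and took per-gene totals from htseq-count. The deposited signal is a read count divided by the DESeq2 size factor of its library. The annotation, strand setting and handling of multiply mapping reads are not given in the sources used here. Whole reads were recovered for 100% of values to within 0.01. Genes with 10 or more normalized counts in at least 3 libraries were kept, and limma 3.58.1 (R 4.3.3, trended empirical Bayes) was fitted to log2(normalized count + 1) in 1 model of 4 group means. p-values are two-sided and adjusted over all 11998 genes tested. A call needed an adjusted p no higher than 0.05 together with a change of 1 log2 unit or more; the interaction needed the adjusted p alone. Intervals are 95%, from the same fit. edgeR 4.0.16 and DESeq2 1.42.0 on the recovered reads, other pseudocounts, filters and scalings, a replicate block and leaving out each library were alternatives. Exon lengths and positions came from GENCODE M21 (GRCm38). Apart from the 10 genes, text names up to 3 called genes per fixed list and comparison, largest change first (cell type markers by counts and sums), and of the genes closest in pattern the first, or the first 3 for Cxcl1, Cxcl12, Cxcl14 and Ackr3 (those of Ccl7 are not reported here). Ccr2, Cxcr2, Cxcr4, Ccrl2, Adam10, Adam17, Cd14, Cidea, Col1a1, Col3a1, Fap, Mmp2, Mmp14, Crem and Sod2 in vector, Sod2 between the lines and the undetected markers were named after their values were seen. The 10 genes and the lists were chosen with earlier results of these data known.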

Additional observations from a re-analysis of the deposited data

How the results depend on the processing

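Of 840 recomputed values of the 10 genes, 793 kept direction and call, 22 lost and 3 gained a call, and 22 changed sign; of 734 such values of genes named from the lists, 668 kept both, 65 lost and 1 gained a call. Unstimulated, the count called higher in tSema4B (1) was 0 with a pseudocount of 10, no filter, a filter at 50 normalized counts, edgeR, DESeq2 or only the groups compared, 4 by adjusted p alone, and 0 to 2 leaving out 1 library each; the count called lower (0) was 0 to 1. With NE the count higher in tSema4B (0) was 2 by adjusted p alone. For NE in vector the count higher (3) was 2 with a pseudocount of 10, a filter at 50 or equal totals over all genes, and 2 to 3 leaving out libraries; the count lower (1) was 0 with a pseudocount of 10 and 0 to 1 leaving out libraries. For NE in tSema4B the count higher (2) was 1 with a pseudocount of 0.5, no filter or a filter at 50, and 1 to 2 leaving out libraries. The filter at 50 leaves Ackr3 and Cxcl5 untested, and the cause of the other changes was not tested. The interaction over all genes was called for 3 genes by limma (1227 at an unadjusted p under 0.05), all higher; edgeR called 3 higher and 1 lower and DESeq2 29 and 58.

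The sign changes are all in values that were not called. Leaving out 1 library each, the line difference with NE ran from -0.206 to 0.0629 for Ccl7 and from -0.0275 to 0.420 for Ackr3, and the NE change in vector from -0.272 to 0.0120 for Cx3cl1 and from -0.120 to 0.0924 for Csf1. The NE change in tSema4B ran from -0.143 to 0.0789 for Ccl7, from -0.272 to 0.144 for Cxcl16 and from -0.190 to 0.0334 for Csf1. The interaction ran from -0.103 to 1.48 for Cxcl5 and from -0.163 to 0.0826 for Csf1. With equal totals over all genes the Ccl7 line difference with NE was 0.0397 and the Csf1 interaction 0.0484 (0.0152 over nuclear genes). The Cxcl5 interaction was -0.0277 with a pseudocount of 10, -0.0766 with edgeR and -0.0609 with DESeq2.

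The replicate numbers showed no sign of pairing the samples: over 18 pairs of groups and numbers the correlation of deviations ran from -0.0470 to 0.0282. A weak pairing could go unseen with 3 libraries per group. With a replicate block the counts called higher were 1, 0, 3 and 2 and called lower 0, 0, 1 and 0 for the lines unstimulated and with NE and for NE in vector and tSema4B, as without it. Depth limits Ackr3, Cxcl5, Csf1r, Il6 and Ucp1, which had 0 to 18 reads in every unstimulated library.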
